A study of Mus musculus with 33 samples.

Results

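The cells described here are 6184 neutrophils of mouse bone, taken from a pooled single-cell RNA library of bones that had received a tumour cell injection named only IIA in the labels. A barcode was counted as a neutrophil if it carried at least 10 UMIs (unique molecular identifiers, each standing for a captured RNA molecule) of S100a8, at least 10 of S100a9 and at least 1 of Csf3r, and none of Mki67, Top2a, Cd79a and C1qa. These 7 genes chose the cells, so their values are given as a description and carry no test. The neutrophils made up 27.7% of the 22362 kept IIA bone cells, out of 26666 barcodes in that library and 83731 barcodes in the series. In SAMENT, the niche labelling method of the study, injected tumour cells place biotin on neighbouring cells, and sorting then separates biotin positive from biotin negative cells. The labels number 6 biotin positive and 6 biotin negative bone samples by injection, and the 12 samples were marked with TotalSeqC hashtags and read in 1 library by 5' end sequencing. All of these samples, the biotin negative ones included, therefore came from injected animals, and no uninjected bone was compared. The labels do not give the tumour cell line, the strain, sex or age of the mice, or whether the positive and negative samples of an injection number shared an animal, so p-values measure the spread between these samples only. The 8 bone samples taken after an intracardiac injection, 4 biotin positive and 4 biotin negative, served as a second experiment.

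Neutrophils are short-lived phagocytes made in the marrow. As they mature they first transcribe the proteases of the primary granules, then the iron-binding and antimicrobial proteins of the secondary granules (Ltf, Camp, Ngp, Lcn2). Matrix metalloproteases such as Mmp8 and Mmp9 follow, and finally receptors such as Cxcr2 that draw them into the blood. S100a8 and S100a9 encode the calcium-binding proteins that fill their cytosol, and Csf3r encodes the receptor of the growth factor G-CSF. Sensing of microbes or cytokines makes mature neutrophils transcribe chemokines and cytokines through NF-kB, whereas C/EBP factors act at granule genes.

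Each neutrophil was placed in its sample by a 15-base hashtag, and the hashtag names in the count matrix were matched to the deposited key by their number alone, on which every sort and injection label here rests. The 2 tags of the first injection are shown because they carry the sort label, with capitals marking the 11 bases at which they differ. Over the 66 pairs of tags the fewest differences were 7.
biotin positive, injection 1: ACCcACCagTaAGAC
biotin negative, injection 1: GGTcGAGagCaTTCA

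The upstream sequences of 5 genes are shown because these genes stand for the groups that moved in opposite directions below. They are the 150 bases before the RefSeq transcription start (GRCm38.p6), written 5′ to 3′ on the gene's strand, with motif matches in capitals. Cxcl2 (a chemokine for neutrophils, chr5:90903749-90903898, plus strand), Nfkbia (the inhibitor of NF-kB, chr12:55492648-55492797, minus strand) and Tnfaip3 (an NF-kB feedback enzyme, chr10:19015411-19015560, minus strand) hold the NF-kB consensus motif. Ltf (lactoferrin, chr9:111019142-111019291, plus strand) and Ngp (neutrophilic granule protein, chr9:110419658-110419807, plus strand) hold the C/EBP letters TTGCNNAA on either strand.
Cxcl2: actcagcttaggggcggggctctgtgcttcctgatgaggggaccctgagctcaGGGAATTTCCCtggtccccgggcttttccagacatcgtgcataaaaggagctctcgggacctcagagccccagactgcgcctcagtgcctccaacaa
Nfkbia: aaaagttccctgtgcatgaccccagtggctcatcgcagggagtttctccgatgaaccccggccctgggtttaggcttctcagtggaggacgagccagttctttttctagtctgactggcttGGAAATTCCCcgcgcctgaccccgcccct
Tnfaip3: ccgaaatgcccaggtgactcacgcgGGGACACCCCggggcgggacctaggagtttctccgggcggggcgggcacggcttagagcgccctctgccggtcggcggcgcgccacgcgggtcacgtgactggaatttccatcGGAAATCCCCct
Ltf: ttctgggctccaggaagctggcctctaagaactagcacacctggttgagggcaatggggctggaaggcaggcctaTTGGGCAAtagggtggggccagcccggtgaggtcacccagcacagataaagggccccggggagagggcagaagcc
Ngp: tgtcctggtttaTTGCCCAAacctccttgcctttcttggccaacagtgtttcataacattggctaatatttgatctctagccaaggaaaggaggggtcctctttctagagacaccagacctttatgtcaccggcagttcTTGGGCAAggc

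The NF-kB match began 97 bases before the start in Cxcl2 (with a second, overlapping match at 96) and 29 bases before it in Nfkbia, and at 125 and 12 bases in Tnfaip3. The C/EBP match began 75 bases before the start in Ltf and at 138 and 11 bases in Ngp. Searched on both strands, the NF-kB motif lay in 2.38% of the 32851 promoter windows of this length and the C/EBP letters in 5.46%. Of the 15 inflammatory genes of the list used below that have a promoter in the table, 5 held the NF-kB motif (Cxcl1, Cxcl2, Cxcl3, Nfkbia and Tnfaip3). Of the 8 secondary granule genes with a promoter there, 3 held the C/EBP letters (Fcnb, Ltf and Ngp), as did 2 of the 15 inflammatory genes (Clec4e and Ptgs2). Among all genes with a promoter there, the NF-kB motif lay in 6.15% of the 358 that rose, 2.24% of the 134 that fell and 3.57% of the 5626 tested, and the C/EBP letters in 5.03%, 8.21% and 5.01%. A match is a run of letters and was not tested as a binding site.

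The rule set a minimum for S100a8, S100a9 and Csf3r, so their levels describe the chosen cells and do not test the label. Summed over all chosen cells of a sample, S100a8 took 135522 to 167126 CPM (counts scaled to a fixed total per sample) in the 6 negative samples and 79611 to 140236 CPM in the 6 positive ones, and Csf3r took 506 to 1121 and 750 to 1206 CPM. The median neutrophil held 413 S100a8 UMIs in the negative and 221 in the positive sort, so few cells lay near the threshold: 90 had 10 to 19 S100a8 UMIs, and 159 kept cells missed the rule only because S100a8 or S100a9 stood at 5 to 9. The Csf3r condition was the narrow one, since 2588 neutrophils had exactly 1 Csf3r UMI and 5028 kept cells had both S100 genes but no Csf3r UMI. Samples held 32 to 253 neutrophils in the positive sort and 688 to 1234 in the negative sort, with 88608 to 658940 and 2033289 to 4005972 summed UMIs. No barcode of the pooled library was listed more than once, and 7 barcode sequences were shared with the intracardiac bone cells.

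Free RNA set a background in this library. In 1153 cells with Cd79a and Cd79b UMIs (B-lineage markers), each thinned to 1000 UMIs like the neutrophils, S100a8 was found in 59.4% of cells, Elane in 40.2%, Prtn3 in 31.5% and Mpo in 26.4%. The neutrophils gave 36.2% for Elane, 29.4% for Prtn3 and 23.6% for Mpo (5832 cells, median depth 2747 UMIs against 2046 in the Cd79a and Cd79b cells), so these primary granule transcripts were at the background level. Over all neutrophils, other genes stood clear of it. Ltf was found in 60.8% of neutrophils against 6.85% of the Cd79a and Cd79b cells, Camp in 75.5% against 30.6% and Cxcr2 in 34.5% against 1.21%. Il1b was found in 13.9% against 0.52%, and Acod1 in 7.48% against 0 of 1153 cells (approximate upper limit 0.26%, for counting error alone).

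The first comparison asked how large a part of each sort the neutrophils were. Their share of kept cells was 26.5%, 36.4%, 34.1%, 24.2%, 35.5% and 29.5% in negative samples 1 to 6, and 22.9%, 17.7%, 18.1%, 12.9%, 11.8% and 20.6% in positive samples 1 to 6. Every positive sample was below every negative one. The means were 17.3% ± 4.31 (SD, n = 6) and 31.0% ± 5.05 (n = 6), a difference of -13.7 percentage points (two-sided exact permutation p = 0.00216, the smallest possible with 6 against 6 samples). Leaving out any 1 sample kept the difference between -15.0 and -12.6 points.

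The difference in share rested on the genes that had to be absent. Among cells with S100a8, S100a9 and Csf3r at the rule's levels, 52.0% of the positive and 20.5% of the negative sort had a UMI of Mki67, a marker of dividing cells, and 53.2% and 18.7% had one of Top2a. C1qa, a macrophage gene, was found in 3.44% and 0.788%. Without the condition on the 4 absent genes the shares were 37.8% ± 9.58 (n = 6) in the positive and 42.7% ± 6.14 (n = 6) in the negative samples (exact permutation p = 0.303), and the groups overlapped. Positive samples 1 and 6 were then at 48.7% and 49.0%, level with the highest negative sample at 48.9%. Depth differed too: the other kept cells had a median of 8516 UMIs in the positive and 3226 in the negative sort. With every cell thinned to 2000 UMIs, shallower cells left out and S100 minimums of 5 in place of 10, the difference was -11.8 points (exact permutation p = 0.00216).

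**Figure D1:**
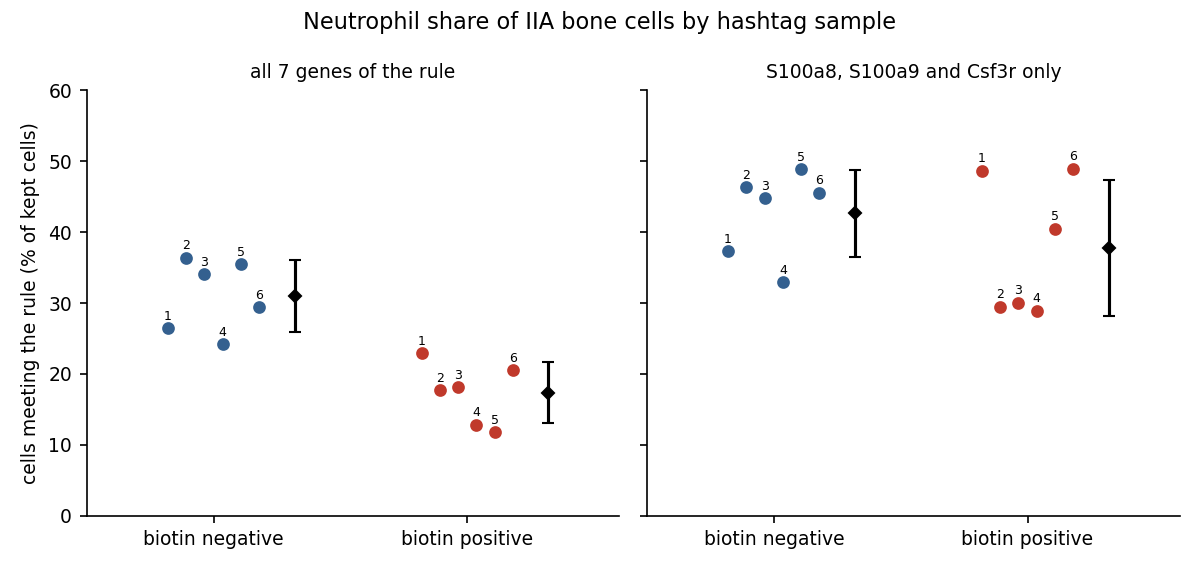
Share of kept IIA bone cells (percent) that met the rule, by hashtag sample, with the full rule on the left and with S100a8, S100a9 and Csf3r alone on the right. Points are samples numbered by injection, diamonds and bars the mean and SD of 6 samples. With the full rule the positive samples lay between 11.8% and 22.9%, below all negative samples, and without the 4 absent genes the groups overlapped.

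Among themselves the neutrophils spread along a gradient of secondary granule RNA. The UMIs of Ltf, Ngp, Camp and Lcn2 made up under 1% of the total in 35.1% of the neutrophils at 1000 UMIs and 10% to under 20% in 15.6% of them. Genes outside these 4 changed along it. Chil3, a chitinase-like protein of immature neutrophils, was found in 7.96% of the cells with the least granule RNA and in 95.7% of those with the most. Fcnb, a ficolin of immature neutrophils, was found in 1.95% and 14.2%. The Cd79a and Cd79b cells gave 7.37% for Chil3 and 1.39% for Fcnb, so the lowest bin was near the background. Cxcr2, the receptor for marrow exit, ran the other way, from 55.7% to 11.7%, from lowest to highest bin. Retnlg, a secreted resistin-like protein, was found in 94.1% of the lowest, 99.2% of the next and 52.6% of the highest bin. The metalloprotease genes were most frequent in between: Mmp8 (neutrophil collagenase) was found in 74.7% and Mmp9 (gelatinase B) in 94.9% of cells with 1% to under 2% granule RNA. Il1b, encoding the cytokine interleukin-1 beta, was concentrated at the low end, at 34.5% of cells against 7.43% in the next bin and 0.22% at the high end. These shares describe cells pooled over samples, and no test is given.

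**Figure D2:**
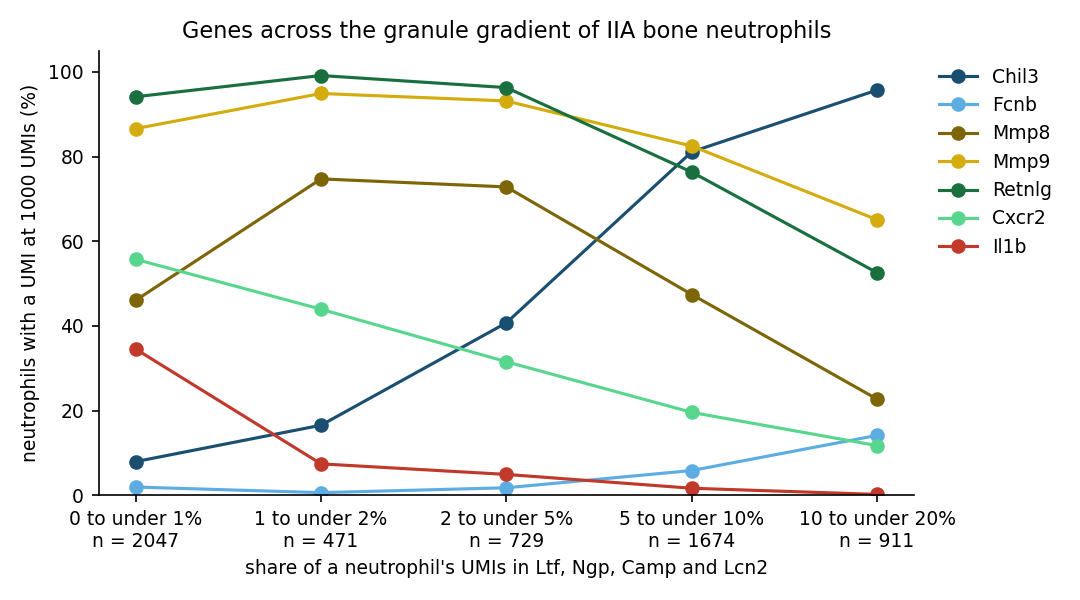
Percent of IIA bone neutrophils, each thinned to 1000 UMIs, with a UMI of 7 genes (vertical axis) against the share of the cell's UMIs in Ltf, Ngp, Camp and Lcn2 (horizontal axis, with the number of cells per bin). Chil3 went from 7.96% to 95.7% and Cxcr2 from 55.7% to 11.7% between the lowest and the highest bin, with Il1b highest in the lowest bin.

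Neutrophils of the positive sort lay further toward the low end of this gradient. Cells with under 1% granule RNA made up 59.2% of the positive and 36.5% of the negative neutrophils (all neutrophils, without thinning), with samples from 44.3% to 66.0% and from 15.2% to 56.6%, so the groups overlapped. At 1000 UMIs a Camp UMI was found in 61.6% ± 4.73 (SD, n = 6) of positive and 77.7% ± 8.10 (n = 6) of negative neutrophils (exact permutation p = 0.00433, adjusted over 6 per-cell measures 0.0173). For Ltf the values were 41.3% ± 7.18 and 63.4% ± 13.5 (exact permutation p = 0.00649, adjusted 0.0173). Positive cells also showed more genes at the same depth, 478.6 ± 15.6 against 446.7 ± 14.4 (exact permutation p = 0.00866, adjusted 0.0173). That depth includes S100a8 and S100a9, which the rule used. They held 233650 and 240812 of the 2178737 UMIs of positive neutrophils, against 2604753 and 2529067 of 17132873 in negative ones. The gene count is therefore not separate from the rule's genes, and a count without them was not tested. Cxcr2 was found in 41.1% ± 10.5 and 33.5% ± 5.21, a difference that did not pass (exact permutation p = 0.147, adjusted 0.147). Thinned to 2000 UMIs, the Camp difference was -11.1 points and the difference in genes 25.6, with adjusted exact permutation p of 0.0519 and 0.0758.

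Gene expression was then compared between the sorts on neutrophil counts summed per sample, with edgeR's quasi-likelihood test and Benjamini-Hochberg adjustment. Of 7003 genes tested, 466 rose in the positive sort (percent of tested genes called: 6.65) and 168 fell (percent called: 2.4) at an adjusted p under 0.05. Groups did not overlap at all for 182 genes (2.6% of those tested), 102 of them with every positive sample above. The count of calls was 318 of 8041 tested without positive sample 3 and 911 of 8011 without positive sample 6. Fits without a negative sample tested 5267 to 5350 genes. Of 633 calls apart from the rule's genes, 244 held in all 12 fits that left out 1 sample, and 339 were lost without positive sample 3. Among the genes named below, Gbp2, Bcl2a1b, Hspa1a, Cd68, Pf4 and mt-Nd6 were not tested in 6 of the 12 fits.

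The secondary granule and immature list moved down: 5 of its 10 genes fell and none rose, with a median log2 fold change of -0.72 beside -0.01 over all 7000 tested genes outside the rule. Camp (the antimicrobial peptide cathelicidin) took 9728, 12123 and 17675 CPM as the lowest, median and highest positive sample and 17098, 26209 and 34019 CPM in the negative ones. Only negative sample 2 reached into the positive range. The log2 fold change was -1.08 ± 0.21 (SE, adjusted p = 0.0042), a 2.11-fold lower level. Ltf, the iron-binding lactoferrin, took 2596, 4360 and 6430 CPM against 5404, 8299 and 11436, so that negative sample 2 again lay within the positive range (log2 fold change -1.0 ± 0.24, adjusted p = 0.0196). Chil3 took 451, 1149 and 1491 CPM against 1465, 2265 and 2984 (log2 fold change -1.09 ± 0.28, adjusted p = 0.0263). Ngp fell by 0.79 on the log2 scale, and Cd177, a surface protein of granule membranes, fell by 0.58 on the log2 scale. Lcn2, an iron-siderophore binder, had a log2 fold change of -0.63 that did not pass (adjusted p = 0.0673). Camp alone kept its call whichever sample was left out. Ltf also missed the threshold without the 5% of neutrophils with the most UMIs (-1.03, adjusted p = 0.0576). The calls of Ltf, Ngp, Cd177 and Chil3 were lost without positive sample 2, and over the 12 such fits Cd177 was lost in 9, Ngp in 5 and Chil3 in 2.

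Of 11 genes of mature neutrophils tested, 3 rose: Il1r2, the decoy receptor of interleukin-1 (192, 466 and 787 CPM against 165, 202 and 281, 2.12-fold), Fpr1, a receptor for bacterial formyl peptides (1.47-fold), and Mxd1, a repressor paired with Myc targets (1.45-fold). Fpr1 and Mxd1 were higher in every positive than in every negative sample, yet both calls were lost without positive sample 1, 3 or 5. Retnlg (17649, 27310 and 32492 CPM against 11308, 19620 and 25398) had a log2 fold change of 0.32 ± 0.19 that did not pass (adjusted p = 0.333). None of the 6 genes of marrow retention and exit passed by edgeR, with Cxcr2 at 0.24 ± 0.19. Of the 6 tertiary granule genes, Adam8, a membrane protease, rose 1.84-fold (440, 766 and 983 CPM against 310, 372 and 485, adjusted p = 0.00284), while Mmp9 (0.18 ± 0.13) and Mmp8 (0.04 ± 0.21) did not pass. The 5 primary granule genes had log2 fold changes with a median of 0.51 and none passed. Of these, Elane, Mpo and Prtn3 were at levels that the Cd79a and Cd79b cells also showed.

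Of the inflammatory genes, 12 of the 14 tested (of 18 in the list) rose and none fell, with a median log2 fold change of 2.60. Among secreted factors, Il1b took 1163, 1753, 3045, 135, 1677 and 313 CPM in positive samples 1 to 6, against 46.6 to 378 CPM in the negative samples. Positive samples 4 and 6 lay within the negative range and the other 4 far above it. The log2 fold change was 2.80 ± 0.73 (adjusted p = 0.0382). Cxcl2 took 2036, 6030, 5787, 135, 1991 and 431 CPM in positive samples 1 to 6 against 62.7 to 427 CPM, so only positive sample 4 fell inside the negative range (3.93 ± 0.88, adjusted p = 0.0216). Ccl3 and Ccl4, chemokines for monocytes and T cells, rose 22.5-fold and 22.3-fold (adjusted p = 0.00797 and 0.011). Both were at 0 UMIs in positive sample 4, where 3 UMIs would make 33.9 CPM. Osm, the cytokine oncostatin M, took 169, 658 and 981 CPM against 125, 163 and 214, with only positive sample 4 inside the negative range (1.94 ± 0.28, adjusted p = 0.00146).

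Most other tested members of the list moved with them. Acod1, which makes itaconate, took 45.1, 569 and 1273 CPM against 23.6, 46.0 and 112 (10.5-fold, adjusted p = 0.00718). Ptgs2, the inducible prostaglandin synthase, had a log2 fold change of 3.70, while Nlrp3, the inflammasome sensor, rose 5.27-fold and Clec4e, a receptor for mycobacterial and damage signals, 2.84-fold. The feedback genes of NF-kB rose as well, Tnfaip3 7.60-fold and Nfkbiz 1.73-fold, with Nfkbia at a log2 fold change of 1.92. Tnf (log2 fold change 1.29 ± 0.40, adjusted p = 0.0612) and Il1rn, the interleukin-1 receptor antagonist (1.45 ± 0.42, adjusted p = 0.053), did not pass. Of the 12 calls, 6 held whichever sample was left out (Ccl3, Ccl4, Tnfaip3, Acod1, Osm and Clec4e), and the other 6, Il1b among them, were lost without positive sample 3. Il1b was lost in 8 of the 12 fits. Counted in cells at 1000 UMIs, Il1b was found in 34.4%, 57.5%, 52.3%, 6.67%, 41.1% and 13.6% of positive neutrophils 1 to 6 and in 3.13% to 17.5% of negative ones. The means were 34.3% ± 20.5 and 10.5% ± 5.23 (n = 6 each, exact permutation p = 0.0346, adjusted 0.0519). Without positive sample 4 the difference was 29.3 points and passed the adjustment, as it did without positive sample 6 (27.9) or negative sample 2 (25.2). Positive sample 4 rested on 30 cells, and its 95% Clopper-Pearson interval of 0.818% to 22.1% covers counting error only.

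The other 4 inflammatory genes were too sparse for the test. Cxcl1, a chemokine for neutrophils, had 151 UMIs in the positive and 26 in the negative neutrophils, with 104 in positive sample 2. Cxcl3, a related chemokine, had 364 and 94, with 234 in positive sample 2 and 114 in positive sample 3 (74 of the negative UMIs were in negative sample 2). Il1a (interleukin-1 alpha) had 39 UMIs, all in the positive sort 18 of them in sample 2 and 16 in sample 3. Icam1, an adhesion molecule for leukocytes, had 41 UMIs in the positive and 57 in the negative neutrophils, out of 2178737 and 17132873 UMIs in all.

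**Figure D3:**
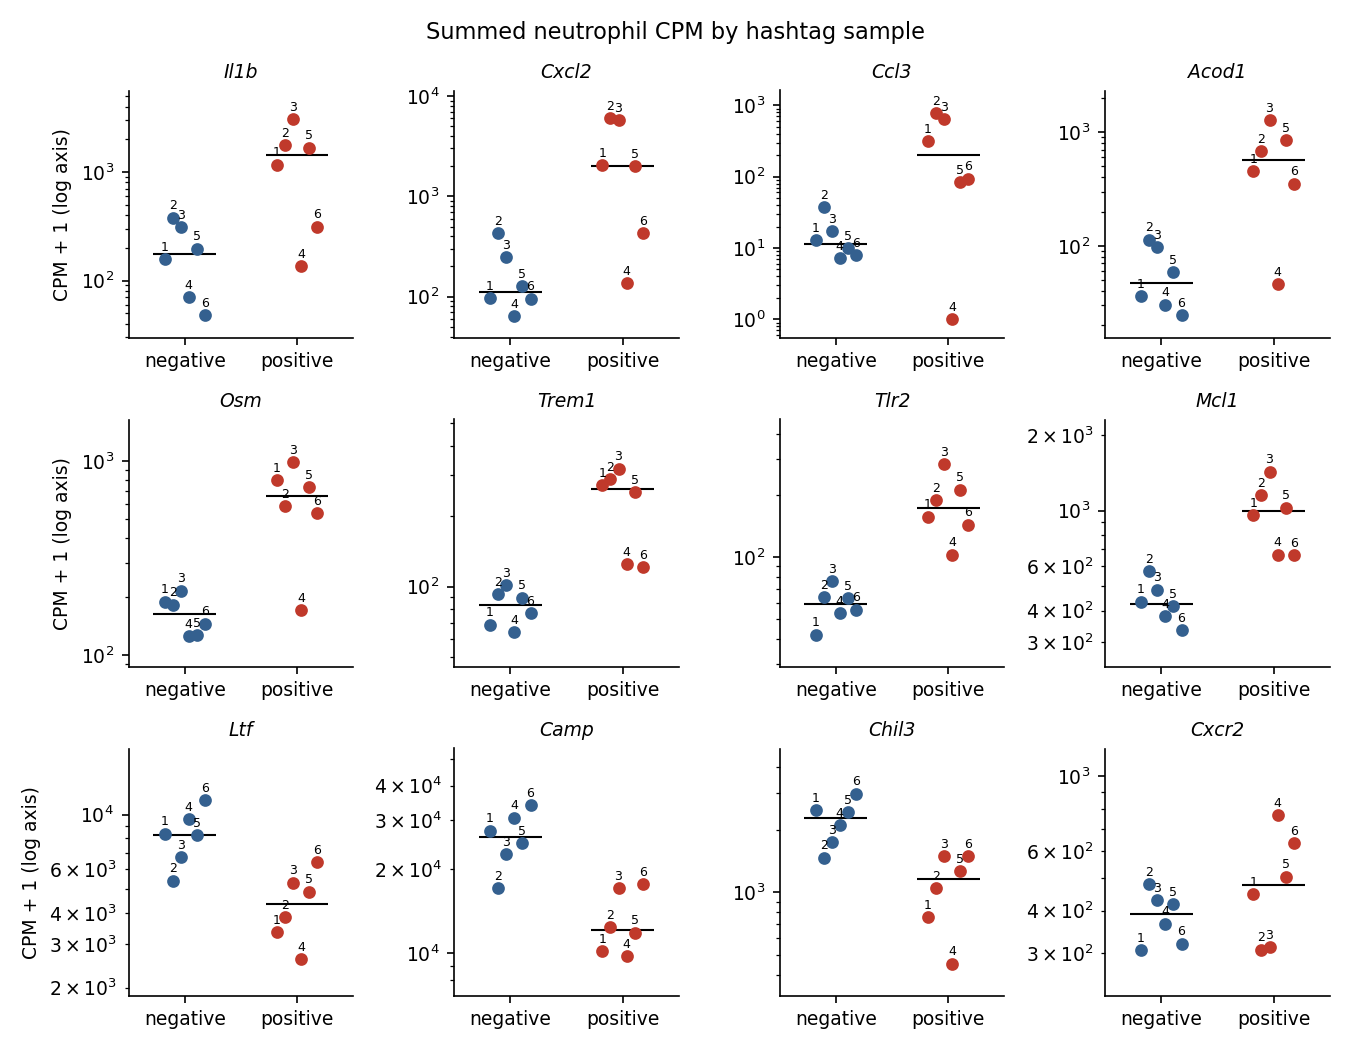
Summed neutrophil expression (CPM + 1, log axis) of 12 genes in the 6 negative and 6 positive hashtag samples, numbered by injection, with bars at the medians. Il1b, Cxcl2 and Acod1 were higher in positive samples 1, 2, 3 and 5 than in 4 and 6, and Ccl3 was highest in 1, 2 and 3, while Trem1, Tlr2 and Mcl1 were higher in every positive sample and Camp, Ltf and Chil3 were lower in most.

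Receptors that sense microbes rose in part. Tlr2, the receptor for bacterial lipoproteins, took 102, 173 and 283 CPM against 40.8, 58.1 and 75.2, with every positive sample above every negative one (3.10-fold, adjusted p = 8.39e-05). Cd14, the co-receptor for endotoxin, rose 7.21-fold (79.0, 451 and 1447 CPM against 36.7, 56.3 and 196.2), Clec4d, a C-type lectin, 3.21-fold. Tlr4, the endotoxin receptor, passed with a log2 fold change of 0.68. These were 4 of 9 tested, and the median of the list was 0.52. The Fc receptor genes Fcer1g (-0.08 ± 0.11) and Fcgr3 (0.29 ± 0.13) did not pass. Among 11 cytokine receptors, Il1rap, which pairs with the interleukin-1 receptor, rose 2.71-fold and Tnfrsf1b, a TNF receptor, 2.66-fold, and both held whichever sample was left out. The receptor subunits Csf2ra and Csf2rb for GM-CSF did not pass, at -0.16 ± 0.14 and 0.13 ± 0.16. Tlr4 was lost in 6 of the 12 fits, without positive sample 3 among them.

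Of the genes grouped as immune regulation, 4 of the 6 tested rose (12 in the list). Trem1, a receptor that amplifies inflammatory signals, took 120, 261 and 318 CPM against 63.0, 82.2 and 100.5, without overlap (2.75-fold, adjusted p = 0.000395). Vegfa, the angiogenic growth factor, rose 4.02-fold and Tgfb1 1.39-fold. Tgfb1 was lost in 5 of the 12 fits. Spp1, osteopontin, had a log2 fold change of 2.28 ± 0.71 that did not pass (adjusted p = 0.0762). It passed in 7 of 24 alternative settings, among them without negative sample 2 (3.16, adjusted p = 0.00408).

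Immediate early and stress genes rose in 7 of 11 tested, with a median log2 fold change of 1.78. Junb took 451, 1376 and 2236 CPM against 253, 361 and 565 (3.17-fold, adjusted p = 0.00585), and only positive sample 4 lay in the negative range. Zfp36, which destabilises cytokine RNAs, took 384, 644 and 952 CPM against 263 to 370, with no overlap (log2 fold change 1.00 ± 0.17, adjusted p = 0.00196). Fosb rose 5.98-fold, Fos 3.43-fold, Atf3 5.11-fold and Dusp1 3.54-fold. Hspa1a rose 7.93-fold, and its reads cannot be told apart with certainty from those of its near copy Hspa1b. Junb, Fosb and Zfp36 held in all 12 fits, and the other 4 were lost without positive sample 3. Over the 12 fits Fos was lost in 8, Atf3 in 7 and Dusp1 in 9, and without negative sample 2 the log2 fold change of Atf3 was 3.0 against 2.35 with all samples. Tissue had been dissociated with warm collagenase before sorting, per the labels' protocols, and its part in these genes was not tested.

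Transcription factors and survival genes changed in part. Cebpb, a C/EBP factor of emergency granulopoiesis, took 248, 1478 and 1995 CPM against 229, 351 and 563 (3.25-fold, adjusted p = 0.0255) but was lost without positive sample 1, 2, 3 or 5. Nfil3 rose 2.06-fold and Klf6 1.55-fold (lost in 4 of the 12 fits), while Spi1, the PU.1 factor of the myeloid lineage, did not pass (0.11 ± 0.13). These were 3 of 10 tested. Mcl1, the survival factor on which neutrophils depend, took 662, 991 and 1427 CPM against 333, 424 and 573, with no overlap (2.16-fold, adjusted p = 0.00114). Bcl2l11, which encodes the death factor BIM, rose 4.66-fold. Bcl2a1b, a survival factor, rose 10.3-fold, but it has near-identical copies between which reads may be split.

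Of 16 genes of glycolysis and hypoxia, 4 rose: Slc2a1, a glucose transporter (3.21-fold), Bnip3, a mitophagy receptor (3.17-fold), Hif1a, the hypoxia factor (1.58-fold), and Ldha, lactate dehydrogenase (1.42-fold). None of these 4 calls held in every fit that left out a sample, and all 4 were lost without positive sample 2 or 3. The glycolytic enzymes Gapdh (0.13 ± 0.14), Pkm (0.11 ± 0.13) and Eno1 (0.12 ± 0.15) did not pass. Of the 13 mitochondrially encoded genes, 12 rose and none fell, with a median of 0.87, and 9 did so without overlap. In all 12 fits that left out 1 sample, 9 of these calls held. The other 3 (mt-Co3, mt-Nd6 and mt-Co2) were lost without positive sample 3, and mt-Co2 was lost in 6 fits. mt-Nd1, a subunit of respiratory complex I, took 258, 303 and 451 CPM against 115, 135 and 151 (2.39-fold, adjusted p = 8.39e-05). The median share of mitochondrial UMIs per cell was nevertheless 0.325% in the positive and 0.352% in the negative neutrophils.

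Among the oxidative burst genes, Cybb, the catalytic subunit of the NADPH oxidase, took 598, 816 and 1088 CPM against 1036, 1376 and 1723 (log2 fold change -0.82 ± 0.18, adjusted p = 0.0081) and held in all 12 fits. It was the 1 member of 6 that passed. Cyba, its partner subunit, was lower in every positive than in every negative sample (1184 to 1311 against 1322 to 1626 CPM) but missed the threshold (adjusted p = 0.0686). Of 10 interferon genes tested (14 in the list), Gbp2, a guanylate-binding protein, passed at 2.26-fold, and it was lost without positive sample 2, 3 or 5. The median of that list was -0.02, with Ifitm3 at -0.08 ± 0.15.

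Outside the lists, the genes with the smallest adjusted p and no overlap included Smox, a spermine oxidase (128, 266 and 371 CPM against 38.4, 48.8 and 86.8, 4.38-fold), Fosl1, an AP-1 factor (4.33-fold), Lamb3, a laminin chain (3.38-fold), Ccr1, a receptor for Ccl3 (293, 306 and 382 CPM against 108, 137 and 174, 2.13-fold), Basp1 (2.96-fold), Rdh12, a retinol dehydrogenase (2.56-fold), and Txnl1, a thioredoxin-like protein (2.28-fold). Tgoln1, a trans-Golgi protein with a close copy, was at 3.15-fold. Among genes without overlap that fell, Adpgk, an ADP-dependent glucokinase, took 684, 753 and 910 CPM against 1073, 1255 and 1334 (1.70-fold lower, adjusted p = 0.00157). Nhsl2 was 1.61-fold, Mppe1 1.94-fold, Cyren, a regulator of DNA end joining, 1.93-fold, Fam222b 1.64-fold, Mlst8, a subunit of the mTOR complexes, 2.06-fold, Lrmp 1.57-fold, and Tex15 3.06-fold lower. The unnamed transcripts F730016J06Rik and Gm47071 were 2.23-fold and 1.98-fold lower. All of these kept their calls in every fit that left out 1 sample, but Lrmp turned to a log2 fold change of 0.70 in neutrophils with under 1% granule RNA, where it did not pass (adjusted p = 0.213).

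Beside S100a8 and S100a9, the highest mean CPM included Retnlg, Camp, Gm42418 (which overlaps ribosomal RNA sequence), Tmsb4x, S100a6, Ngp, Wfdc21, Lcn2, Ltf, Lyz2, Actb, Pglyrp1 and Fth1. Fth1, the ferritin heavy chain, took 2663, 5493 and 14096 CPM against 1158, 1466 and 2562 with every positive sample higher (3.86-fold, adjusted p = 0.00686). Lyz2, lysozyme, fell by 0.56 on the log2 scale (adjusted p = 0.0275) and was lost in 6 of the 12 fits that left out a sample. Actb (-0.11 ± 0.11), Tmsb4x (-0.19 ± 0.12) and S100a6 (0.01 ± 0.20) did not pass.

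Markers of other cells were checked in the same sums, because other cells of marrow also express inflammatory genes. The 10 macrophage genes together took 0.0497% to 0.181% of the UMIs of positive neutrophils and 0.0321% to 0.0556% of those of negative ones. All 10 had at least 1 UMI. Of 6 tested, Cd68, a lysosomal protein of macrophages, rose (11.3, 35.4 and 142 CPM against 8.20, 10.2 and 14.9), as did Ctsd, a lysosomal protease (1.64-fold). Without the 5% of neutrophils with the most UMIs, Cd68 had a log2 fold change of 0.90 against 2.27 with all cells and did not pass (adjusted p = 0.132). Csf1r (adjusted p = 0.0793) and Apoe (adjusted p = 0.128) did not pass, and C1qb had 10 UMIs in the positive and 38 in the negative neutrophils. Of the platelet genes, Pf4 rose, with 1853 CPM in positive sample 2 and 0 to 201 CPM in the other 5 positive samples, and its call was lost without positive sample 3 or without positive sample 2, where the log2 fold change was 2.45 against 4.79 with all samples. Positive sample 2 also held 158 of the 168 Ppbp UMIs of the positive neutrophils. None of the 6 monocyte genes passed. The 6 B cell genes took at most 0.0138% of UMIs, the 6 T and NK cell genes at most 0.0246%, the 6 red cell genes at most 0.0184%, the 6 stromal and bone genes at most 0.0249% and the 4 epithelial genes at most 0.000103%, with Krt19 at 0. The part of macrophage or platelet RNA in the changes above was not tested. Without positive sample 2 the test called 493 genes, 378 higher and 115 lower, and of the 12 inflammatory calls 3 were lost (Il1b, Nfkbiz and Nlrp3). Over all fits that left out 1 sample, the lowest log2 fold changes of these 3 were 2.35, 0.61 and 1.96.

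Because the sorts differed in where their neutrophils lay along the granule gradient, they were compared again within each end of the gradient. Granule-low neutrophils (under 1% granule RNA, 457 positive and 1975 negative cells) gave 158 genes higher in the positive sort of 3814 tested (percent called: 4.14) and 25 lower. Granule-high neutrophils (at least 1%, 315 and 3437 cells) gave 341 higher of 5598 (percent called: 6.09) and 57 lower. All 13 inflammatory genes testable in granule-high cells rose, with a median log2 fold change of 3.04, and in granule-low cells 5 of 13 rose, with a median of 2.30. Il1b had a log2 fold change of 3.92 in granule-high (adjusted p = 0.0108) and 2.18 in granule-low cells (adjusted p = 0.0863). Osm passed in both, as did Cxcl2, Ccl3, Acod1, Tlr2 and Mcl1. Of the named calls, however, 34 of 62 tested missed the threshold in granule-low and 9 of 66 in granule-high cells. In granule-low cells 0 of 11 mature, 1 of 9 immediate early and stress and 0 of 15 glycolysis and hypoxia genes rose. The same lists gave 4 of 11, 5 of 8 and 5 of 16 in granule-high cells. The secondary granule genes, which define the split, are given as description only: Camp was at 0.03 in granule-low and -0.69 in granule-high cells.

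Counted in cells, Il1b was found in 45.3%, 71.4%, 78.8%, 17.6%, 55.6% and 18.5% of granule-low neutrophils of positive samples 1 to 6, against 18.5% to 32.04% in the negative samples. In granule-high neutrophils it was found in 21.6%, 19.4%, 25.4%, 0%, 17.1% and 9.86%, against 0.184% to 3.75%. In granule-high cells 5 of the 6 positive samples were above all negative ones, and in granule-low cells 4 of the 6. The 0% of positive sample 4 came from 13 cells, which by an approximate limit for counting error alone allows a share of up to 23.1%. The difference between the granule-high and granule-low effects was not tested.

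**Figure D4:**
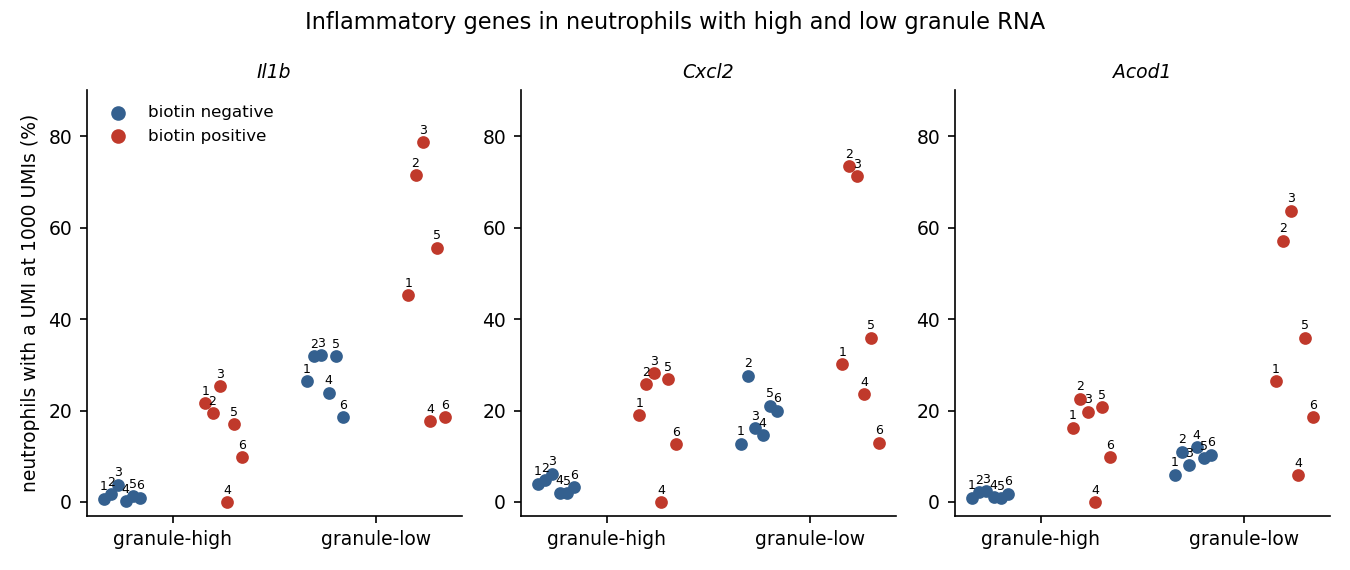
Percent of neutrophils, each thinned to 1000 UMIs, with a UMI of Il1b, Cxcl2 or Acod1, in granule-high (at least 1% of UMIs in Ltf, Ngp, Camp and Lcn2) and granule-low cells of each negative and positive hashtag sample, numbered by injection. In granule-high cells negative samples stayed at or below 3.75% for Il1b while 5 positive samples stood between 9.86% and 25.4%.

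The next question was whether the neutrophils differed between the sorts as the other cells of the same samples did. The other 16178 kept cells are a mixture, and many of them carried neutrophil RNA: 14398 kept cells had both S100 genes at the rule's level, of which 6184 were neutrophils by the full rule and 5028 lacked a Csf3r UMI. Sums over the other cells carry composition as well as expression. The sort effect differed between neutrophils and other cells for 1180 of 11582 genes (percent called: 10.2), 788 of them with a higher effect in neutrophils. With the scaling factors of DESeq2's median ratio (RLE) 962 of 1192 were higher, and the median over all genes moved from -0.13 to -0.03. Ccl3 had a neutrophil effect 4.17 log2 units above that in the other cells (adjusted p = 0.000525), Trem1 2.17 above, Osm 1.98 above, Il1b 2.10 above and Mcl1 1.39 above. Of the 11 mature genes, 8 passed with a higher effect in neutrophils, and the median difference was 1.76. Retnlg was at 0.32 in neutrophils and -1.98 in the other cells. The 5 primary granule genes went the other way, with all 5 passing, as Mpo was at 0.79 in neutrophils and 2.49 in the other cells. Vegfa (difference 0.19, adjusted p = 0.693), Spp1 (0.02, adjusted p = 0.994), Fth1 (0.52, adjusted p = 0.474) and Bnip3 (-0.53, adjusted p = 0.277) did not pass the test of the difference. Without positive sample 2 the number of genes was 1789, and without positive sample 5 it was 783.

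**Figure D5:**
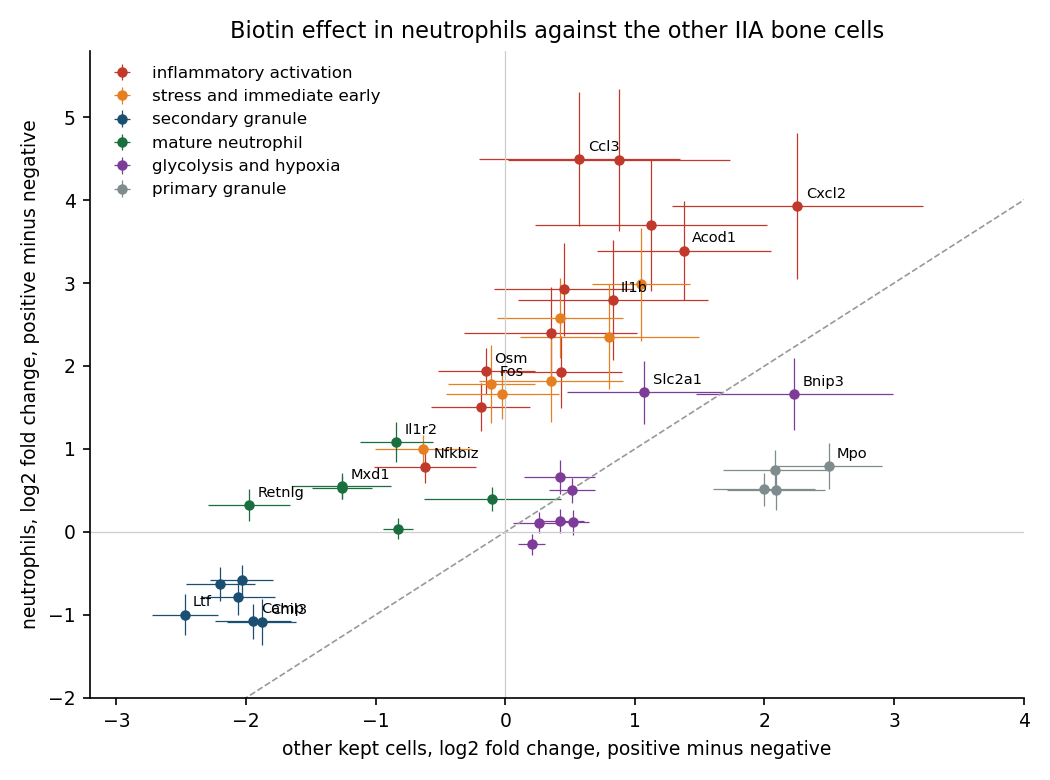
Log2 fold change between biotin positive and negative sorts in neutrophils (vertical axis) against that in the other kept IIA bone cells (horizontal axis), with standard errors, for the named genes of 6 lists; the dashed line marks equal values. Inflammatory, immediate early and mature neutrophil genes lay above the line, primary granule genes below it, and glycolysis genes on both sides.

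Neutrophils chosen by the same 7 genes from the intracardiac bone samples (5016 cells, 431 to 1886 per negative and 113 to 434 per positive sample) were compared between the sorts in the same way, over 4 against 4 samples. By edgeR 0 of 7509 genes passed (percent called: 0), with 123 at an unadjusted p under 0.05, and DESeq2 also called 0. Samples with the same replicate number resembled each other there, and with that number as a block 26 genes passed (percent called: 0.346), 20 higher and 6 lower in the positive sort. Nlrp3 (0.83 ± 0.14, adjusted p = 0.0187), Atf3 (1.06 ± 0.18, adjusted p = 0.00722) and Klf2, a quiescence factor (0.48 ± 0.10, adjusted p = 0.0167), were among them. Il1b was at 0.80, Cxcl2 at 1.06, Osm at 0.85 and Trem1 at 0.57 without the block, and the granule genes Camp at 0.03, Ltf at 0.05 and Chil3 at -0.28, and none of these passed with or without the block.

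The difference between the IIA and the intracardiac effect passed for 0 of 9182 genes without the block (897 at an unadjusted p under 0.05). With a block on the replicate numbers of both experiments, IIA included, it passed for 157 (percent called: 1.71). Of these, 141 had a higher and 16 a lower effect in IIA bone. Among them were Ccl3 (3.70 log2 units higher in IIA, adjusted p = 0.0336), Ccl4 (3.62), Nlrp3 (1.41), Cd14 (2.09), Tlr2 (1.18), Clec4d (1.35), Il1rap (1.18), Tnfrsf1b (1.03), Mcl1 (0.79), Bcl2l11 (1.53), Smox (1.74), Fth1 (1.49) and mt-Nd1 (1.25). Il1b (1.92, adjusted p = 0.106), Cxcl2 (2.55, adjusted p = 0.154), Camp (-1.10, adjusted p = 0.0914) and Ltf (-1.02, adjusted p = 0.181) did not pass. The experiments also differed in chemistry (3' against 5' ends) and multiplexing, which cannot be told apart from the route of injection.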

How the data were processed

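Single-cell RNA was measured in bone cells sorted by biotin. Values are whole UMI counts for each gene and barcode as deposited, made with cellranger 7.1.0 for the pooled IIA library and 6.1.2 for the intracardiac samples, per the file headers. The submitters' processing notes name mm10 and Seurat; strand handling is not given in the sources used here. Barcodes went to the top hashtag at 10 or more counts and 3 times the second, by the deposited hashtag key, and were kept with at least 500 UMIs, 200 genes and at most 15% mitochondrial UMIs. No doublet caller was run.

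Counts were summed per sample and tested with edgeR 4.0.16 (R 4.3.3; TMM, filterByExpr), fitting positive against negative; DESeq2 1.42.0, RLE scaling, no filter and left-out samples were alternatives. Shares were compared by exact permutation (scipy 1.17.1, numpy 2.4.6). On simulated IIA neutrophil counts over 6864 genes, 34% of 1.5-fold, 84% of 2-fold and 100% of 4-fold changes were recovered. Changes were placed only in genes above a CPM minimum, so recovery of low genes was not measured. Both sorts shared each gene's dispersion, whereas real samples correlated at 0.654 to 0.938 in the positive and 0.924 to 0.981 in the negative sort. Fits to intracardiac samples were also made with the replicate number as a block, since same-numbered samples deviated together (correlations 0.68 to 0.80, each highest with its own number). In the blocked test of the IIA-minus-intracardiac difference the IIA samples were paired by number too. The rule for the cells and the gene lists were chosen with earlier results of these data known. Named genes are list members that passed or had the highest CPM, the 10 higher and 10 lower genes with the smallest adjusted p and no overlap, and the 15 with the highest mean CPM; Tnf, Il1rn, Csf1r, Apoe and the sparse genes given by UMIs were added after their values were seen. Some genes of the lists are not reported here by name.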

Additional observations from a re-analysis of the deposited data

Results flagged for a closer look

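Single samples stood apart from the other 5 of their sort in 16 of 250 groups of 6 values by Dixon's test at the 5% level (critical value 0.625), and chance alone gives about 1 in 20 such groups. Positive sample 2 was the highest for Pf4 (1853 CPM), Ctsd (946 CPM) and Gapdh (1519 CPM) and the lowest for Xiap (53.6 CPM) and Nhsl2 (63.0 CPM). Negative sample 2 was the highest negative sample for Ccl3 (36.4 CPM), Spp1 (100.9 CPM), Nfil3 (47.3 CPM) and Bnip3 (27.0 CPM) and the lowest for Adpgk (1073 CPM). Each of the samples numbered 2 thus stood apart for 5 genes. Other samples stood apart for 1 gene each: Lcn2 in positive sample 6 (8896 CPM), Fpr1 in positive sample 1 (335 CPM), Ccr1 in positive sample 3 (382 CPM), Mlst8 in positive sample 4 (0 CPM), Cd14 in negative sample 3 (196.2 CPM) and Actb in negative sample 1 (5168 CPM).

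The sort effect differed between neutrophils and the other kept cells for 1180 genes, by an interaction term in edgeR. It differed between IIA and intracardiac bone neutrophils for 157 genes with the replicate block and for 0 without it.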

How the results depend on the processing

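Positive samples held few neutrophils, and sample 4 only 32, where 3 UMIs make 33.9 CPM, so low genes rested on 1 or 2 UMIs there. The count of genes differing in IIA neutrophils was 636 with RLE scaling, 777 without a filter (435 higher, 342 lower; 21 of 74 named calls were lost, Il1b, Il1r2, Nfkbia, Nlrp3, Tnfrsf1b, Cebpb and Fos among them), 843 with DESeq2, and 318 to 911 when 1 sample was left out. It was 183 in granule-low and 398 in granule-high cells alone, where fewer cells and genes were tested. Leaving out 1 sample also changed the number of genes tested, from 7003 to between 5267 and 8071. The difference from the other cells gave 783 to 1789 genes when 1 sample was left out. The IIA-minus-intracardiac difference without the block gave 0 to 1 when 1 intracardiac sample was left out; IIA samples were not left out there, nor was any with the block. The block gave 26 genes in the intracardiac and 157 in the IIA-minus-intracardiac comparison.

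In the main fits of IIA bone, the replicate numbers were not taken as pairs. Same-number correlations ran from -0.04 to 0.43, and 3 of 6 were highest with their own number. The IIA-minus-intracardiac fit with the block did take them as pairs, since its block covered both experiments. With the replicate block 597 genes passed, 455 higher and 142 lower, and of 74 named calls 6 were lost (Hspa1a, Fpr1, Tgfb1, Tlr4, Ldha and Pf4); the neutrophil share as cell numbers in edgeR had a log2 fold change of -0.87 against -0.85 without the block. A block could not be added against the other cells, where the hashtag sample is already a term.

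Without the 4 absent genes the share difference was -4.90 points. At 2000 UMIs the difference was 25.6 genes and -11.1 points for Camp. The Il1b share passed the adjustment at 2000 UMIs (18.2 points), with S100 minimums of 20 (22.4) or 5 (24.2) UMIs, at most 10% mitochondrial UMIs (23.3), no C1qa condition (22.1) and no Csf3r condition (21.4). Leaving out 1 sample it lay between 19.1 and 29.3 points, and the difference in median UMIs between -652.1 and -337.8, which passed with negative sample 2 left out, as it did without the Csf3r condition (-575.3). In granule-low cells Camp (0.0271, near the background of free RNA there) and Lrmp (0.70) changed sign. The causes were not tested. Dropping the conditions on C1qa, on Csf3r or on all 4 absent genes, the restriction to granule-low or granule-high cells and leaving S100a8 and S100a9 out of the totals (642 genes) were added after seeing the data.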
